A study of Mus musculus with 4 samples.

Results

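The 10 genes described here encode small paired polypeptides of the S100 calcium-binding family. Most proteins of the family bind calcium through EF-hand loops and then dock onto partner proteins. The 10 genes are S100a1, S100a3, S100a4, S100a6, S100a8, S100a9, S100a10, S100a11, S100a14 and S100a16, chosen by the gene name that the array files give to each probe. These names take in 13 of 39429 probes and 10 of 30340 genes or targets on the array. S100a1, S100a4 and S100a16 each have 2 probes and the other members 1.

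The cells were keratinocytes, which make up the epidermis, from whole skin of newborn C57BL/6 mice. The 4 groups were Pla2g2f-/- cells with added calcium, Pla2g2f-/- cells without it, Pla2g2f+/+ cells with added calcium and Pla2g2f+/+ cells without it. All had been freed with 0.05% collagenase A and grown for 3 days, and then spent 48 h with or without 1 mM CaCl2, which makes cultured keratinocytes stop growing and differentiate. The gene Pla2g2f codes for an enzyme of the secreted phospholipase A2 family; the labels do not say which part of it was deleted.

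Each group was 1 one-colour expression array of RNA pooled from keratinocytes of 6 mice of that genotype. With no second array in any group, nothing below was tested against the spread between replicates. The effect of genotype and that of the cell pool cannot be told apart, nor can the place of an array on its slide and its group, since all 4 arrays lay on 1 slide. The error given with a value is the scanner software's own estimate for a spot, which covers the reading of the array and not the spread between cultures or animals.

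In the epidermis S100 proteins are among the most abundant calcium-binding proteins, and most of their genes sit side by side in the epidermal differentiation complex, a gene-dense stretch shared with envelope proteins of the skin surface. S100a8 and S100a9 pair as calprotectin, a chelator of zinc and manganese that neutrophils carry in bulk and that keratinocytes make when wounded or inflamed. S100a10 and S100a11 bind annexins at membranes, S100a6 and S100a4 bind cytoskeletal and signalling proteins, and S100a1 is best known from heart and skeletal muscle.

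Krt5, a keratin of basal keratinocytes, was well above background in every culture. Krt1, a keratin of the layers above, was so only with calcium. The level of Krt5 was 6.72 and 7.01 log2 in -/- cells with and without calcium, and 7.29 and 7.22 log2 in +/+ cells with and without it. A level here is the log2 of a probe's intensity over the 75th percentile of its own array, so 0 is that percentile. On each array 66.97% to 68.63% of probes were well above background by the scanner's call, and 19225 genes were so on all 4 arrays. Of the genes compared, 67.6% had a log2 difference below 0 between -/- and +/+ cells without calcium and 63.0% with calcium, around medians of -0.18 and -0.16. The sides of the all-gene counts depended on the scaling. Among genes at least 2-fold different, the share on the higher side was 51.7% without calcium and 68.2% with it in the genotype comparisons, against 74.4% and 67.1% under quantile scaling and 84.1% and 91.0% under scaling to genes of basal keratinocytes. For the calcium responses it was 83.2% in -/- and 70.9% in +/+ cells, against 73.2% and 77.1% under quantile scaling and 99.1% and 96.0% under the basal scaling. For the difference of those responses it was 75.2%, against 50.4% and 82.3% under these scalings. The basal scaling moved the all-gene median to 0.15 and 0.26 in the genotype comparisons, and to 0.55 and 0.42 in the calcium responses of -/- and +/+ cells.

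Every member was well above background on all 4 arrays. All 10 lie on mouse chromosome 3 (probe positions in mm9). Probes of 8 of them fall at chr3:90314959-90496632, a stretch of 181.7 kb, and those of S100a11 and S100a10 at chr3:93330022-93368496, across a gap of 2.83 Mb. The array names 72 genes or targets other than S100 genes between the outermost members, some of them only by a probe, clone or model name. None of these lies inside the stretch of 181.7 kb. The probes of S100a8 and S100a1 shown next each read through the codon pattern of a calcium-binding loop. Capitals mark the 36 bases of an EF-hand loop, found by a search for its codon pattern on the probe strand. The S100a8 probe lies at chr3:90473778-90473837 on the plus strand, and this S100a1 probe, the one not used for its level, at chr3:90315191-90315250 on the minus strand (both mm9).
S100a8: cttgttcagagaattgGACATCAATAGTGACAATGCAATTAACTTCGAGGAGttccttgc
S100a1: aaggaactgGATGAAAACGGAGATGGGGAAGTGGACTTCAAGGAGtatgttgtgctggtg
The same pattern occurs in 18 of 39429 probes of the array (0.0457%), and in 2 of the 13 member probes. Whether the other member probes lie in coding sequence or in a UTR is not annotated in the files.

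Relative to the 75th percentile, the arrays of the 2 genotypes did not overlap for any member. On 8 of 10 members both -/- arrays were below both +/+ arrays, where 49.3% of the 19225 genes well above background on all arrays had this order. On the other 2 members, S100a1 and S100a4, both -/- arrays were above both +/+ arrays, as 19.3% of those genes were. On 0 members did both calcium arrays lie above both arrays without calcium, and on 0 below, where 8.88% and 14.8% of genes did. The 8 of 10 thus stands beside a background in which about as many genes have the same order as do not, and the order depends on the scaling. Under quantile scaling 6 members had both -/- arrays below both +/+ arrays, where 42.2% of genes did. There 1 member each had both calcium arrays above (S100a10) and below (S100a6) both arrays without calcium, where 10.6% and 15.7% of genes did. Under scaling to basal keratinocyte markers only S100a8 and S100a9 had both -/- arrays below both +/+ arrays, where 2.79% of genes did, and 6 members had both calcium arrays above both without, where 69.8% of genes did. S100a1 and S100a4 had both -/- arrays above both +/+ arrays under each of these scalings. Of all genes 23.7% did under quantile scaling and 25.3% under the basal scaling. The recount under other scalings was added after the data were seen.

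**Figure D1:**
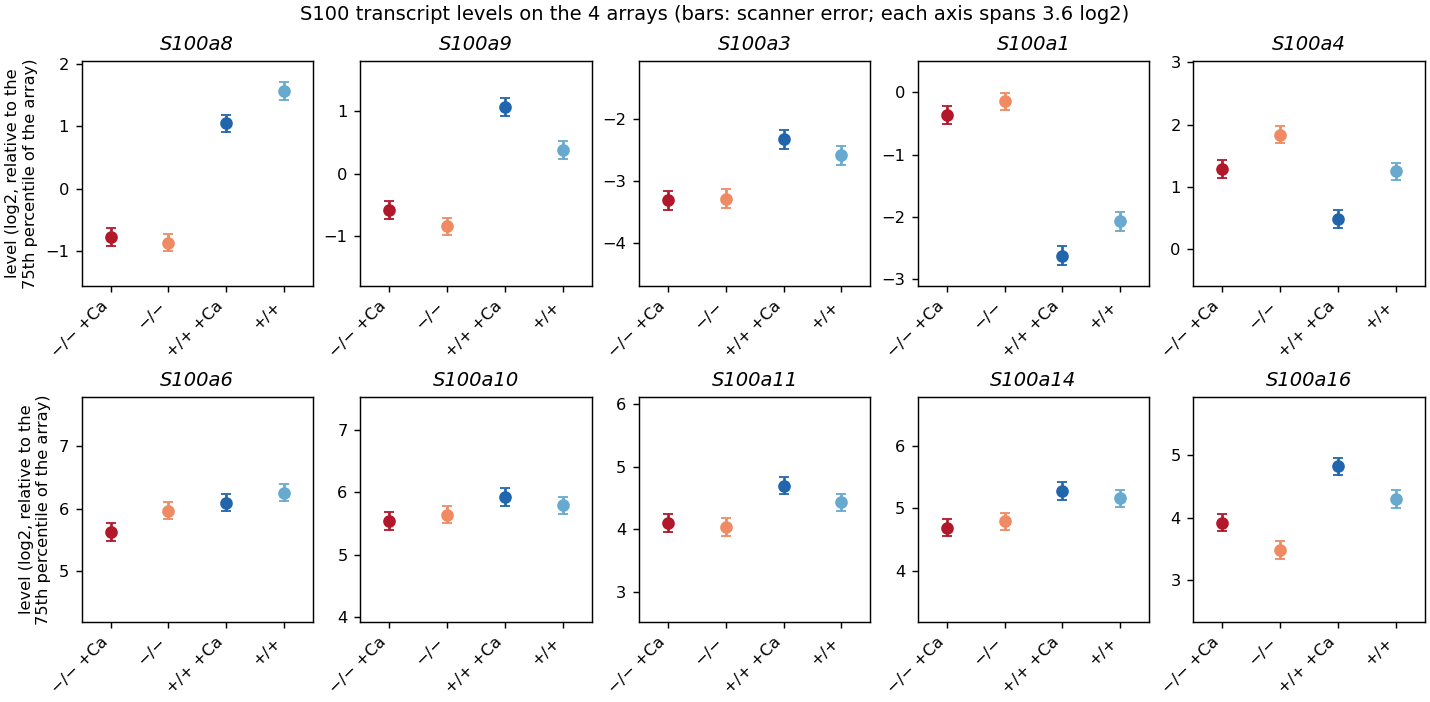
Level of each S100 member, as log2 of intensity over the 75th percentile of its array, on the 4 arrays (-/- with calcium, -/- without, +/+ with, +/+ without). Each point is 1 array read from the member's brightest probe, and bars show the scanner error. S100a8 and S100a9 are lower on both -/- arrays, S100a1 is higher on both, and S100a6 and S100a10 lie within 0.64 and 0.38 log2 over all 4.

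S100a8, the metal-binding subunit that calprotectin shares with S100a9, was the member with the lowest values in -/- relative to +/+ cells. Its level was -0.77 log2 in -/- cells with calcium and -0.86 without, against 1.05 log2 in +/+ cells with calcium and 1.57 without. Both -/- cultures thus lay far below both +/+ cultures and differed from each other by less than the scanner error. The genotype difference was -2.43 ± 0.20 log2 without calcium (5.39-fold lower) and -1.82 ± 0.20 with calcium (3.54-fold lower). Only 27 of 21345 genes compared had a lower value without calcium, and 112 of 21563 with calcium. Relative to the all-gene median the differences were -2.25 and -1.67.

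S100a9, the partner subunit and the one whose longer tail binds further metal ions, was lower too. Its level was -0.58 log2 in -/- cells with calcium and -0.84 without, against 1.07 log2 in +/+ cells with calcium and 0.38 without. The genotypes did not overlap. The difference was -1.23 ± 0.20 log2 without calcium (2.34-fold lower) and -1.65 ± 0.20 with calcium (3.13-fold lower), and 432 and 156 genes had a lower value in these comparisons.

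The pair did not keep step in every comparison. Without calcium the S100a8 difference between genotypes was lower than that of S100a9 by 1.2 ± 0.29 log2 (S100a8 minus S100a9, -1.2), whereas with calcium the gap was -0.18 ± 0.29, less than its error. In +/+ cells calcium went with -0.52 log2 of S100a8 and 0.68 log2 of S100a9. In -/- cells the same differences were 0.09 and 0.26.

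The sequence before each start site is given for this pair and for S100a1, the member that differed most the other way. Each is the 250 bases before the RefSeq start, 5′ to 3′ on the gene's own strand, with GRCm38.p6 positions chr3:90668821-90669070 (plus strand) for S100a8, chr3:90695722-90695971 (minus) for S100a9 and chr3:90514331-90514580 (minus) for S100a1.
S100a8: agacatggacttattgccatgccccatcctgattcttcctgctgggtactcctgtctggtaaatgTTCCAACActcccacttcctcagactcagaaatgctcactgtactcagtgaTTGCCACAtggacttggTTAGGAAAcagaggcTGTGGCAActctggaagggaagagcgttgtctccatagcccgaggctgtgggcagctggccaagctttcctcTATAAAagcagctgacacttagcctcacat
S100a9: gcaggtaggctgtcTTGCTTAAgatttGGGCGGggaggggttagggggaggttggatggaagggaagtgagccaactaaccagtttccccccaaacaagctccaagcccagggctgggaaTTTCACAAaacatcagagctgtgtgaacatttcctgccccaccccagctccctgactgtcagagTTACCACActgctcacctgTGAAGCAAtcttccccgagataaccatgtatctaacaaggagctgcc
S100a1: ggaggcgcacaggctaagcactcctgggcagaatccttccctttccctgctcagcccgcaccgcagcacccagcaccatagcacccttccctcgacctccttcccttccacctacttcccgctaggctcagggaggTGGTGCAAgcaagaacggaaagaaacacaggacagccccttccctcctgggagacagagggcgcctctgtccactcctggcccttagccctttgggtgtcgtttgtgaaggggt
Capitals mark matches, on either strand, to TATAAA, to the AP-1 site TGANTCA, to the Sp1 site GGGCGG and to a pair of C/EBP forms, TTNNGNAA and TGNNGNAA. None of the matches marked here overlap. The S100a8 window holds TATAAA starting 30 bases before the start, 1 match to the first C/EBP form and 3 to the second. The S100a9 window holds 1 Sp1 match, 2 of the first C/EBP form and 2 of the second, and its TATAAA begins at base 1 after the RefSeq start, beyond the stretch printed. The S100a1 window holds 1 match of the second C/EBP form.
Over all 32851 windows of 300 bases in the promoter table, which run to 50 bases past the start, 13.6% hold TATAAA, 7.81% the AP-1 letters, 35.7% the Sp1 letters, and 40.7% and 46.5% the C/EBP forms. Of the 10 members 8 matched the table, with 12 start windows, and 4 of these windows hold TATAAA. A match describes letters only. S100a11 was the member with 2 AP-1 matches in 1 window, and S100a4 and S100a3 were the other members with TATAAA.

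S100a1, a regulator of calcium release in muscle, was the member with the highest value in -/- relative to +/+ cells. Its level was -0.37 log2 in -/- cells with calcium and -0.15 without, against -2.62 log2 in +/+ cells with calcium and -2.07 without. All 3 gaps between neighbouring levels exceeded the scanner error. The genotype difference was 1.92 ± 0.21 log2 without calcium (3.80-fold higher) and 2.25 ± 0.21 with calcium (4.76-fold higher), and 293 of 21345 and 357 of 21563 genes had a higher value. The second probe, whose sequence is printed above, gave 1.98 and 2.33.

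S100a4, which binds non-muscle myosin and is abundant in fibroblasts and macrophages, was also higher in -/- cells, by less than 2-fold. Its level was 1.29 log2 in -/- cells with calcium and 1.84 without, against 0.49 log2 in +/+ cells with calcium and 1.25 without. The -/- culture with calcium and the +/+ culture without it differed by 0.04 log2, within the scanner error. The genotype difference was 0.59 ± 0.20 log2 without calcium (1.5-fold) and 0.80 ± 0.20 with calcium (1.74-fold), and the second probe gave 0.54 and 0.77.

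S100a3, a zinc binder known from the hair cuticle, was lower in -/- cells by less than 2-fold. Its level was -3.31 log2 in -/- cells with calcium and -3.28 without, against -2.33 log2 in +/+ cells with calcium and -2.59 without. The genotype difference was -0.69 log2 without calcium and -0.98 with calcium (1.61-fold and 1.97-fold lower). Of 9 hair cuticle markers 7 could be compared, with medians of -0.50 and -0.29. Their part in the S100a3 value was not tested.

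S100a16, a widely expressed member with a low affinity for calcium, was lower in -/- cells and higher with calcium. Its level was 3.92 log2 in -/- cells with calcium and 3.48 without, against 4.82 log2 in +/+ cells with calcium and 4.30 without. No neighbours in this order were within the scanner error of each other. The genotype difference was -0.81 log2 without calcium and -0.90 with calcium (1.76-fold and 1.87-fold lower), and the second probe gave -0.69 and -0.87.

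The 4 remaining members, S100a6, S100a10, S100a11 and S100a14, varied less over the arrays. S100a6, which binds the ubiquitin-ligase adaptor Cacybp, stood at 5.63 and 5.97 log2 in -/- cells with and without calcium, against 6.10 and 6.26 in +/+ cells with and without it. S100a10, the light chain of the annexin A2 complex, stood at 5.54 and 5.64 log2 in -/- cells with and without calcium, against 5.92 and 5.79 in +/+ cells with and without it. None of the 3 gaps between neighbouring S100a10 levels exceeded the scanner error.
S100a11, a partner of annexin A1 that is built into the cornified envelope, stood at 4.10 and 4.04 log2 in -/- cells with and without calcium, against 4.70 and 4.43 in +/+ cells with and without it. S100a14, an epithelial member, stood at 4.69 and 4.79 log2 in -/- cells with and without calcium, against 5.28 and 5.16 in +/+ cells with and without it. The genotype differences of these 4 members ran between -0.39 and -0.15 log2 without calcium and between -0.60 and -0.38 with calcium. Without calcium that of S100a10, -0.15, was smaller than its error and 0.03 above the all-gene median.

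Taking the genotype comparison without calcium as a whole, 1 of 10 members (S100a1) was at least 2-fold higher, where 4.65% of 21345 genes were, and 2 (S100a8 and S100a9) at least 2-fold lower, where 4.34% were (8.99% either way). The median over members was -0.38 log2, against -0.18 over all genes, and 9 members differed by more than the scanner error. With calcium the same 3 genes were past 2-fold, where 6.55% of 21563 genes were higher and 3.05% lower (9.6% either way). The median over members was then -0.59 log2, against -0.16 over all genes, and 10 members exceeded the scanner error. The share of all genes past their scanner error was not counted for either comparison. Under the scaling to genes of basal keratinocytes, S100a6 and S100a10 turned to 0.04 and 0.18 without calcium, S100a10 to 0.03 with calcium, and S100a9 came to -0.89 (1.85-fold) without calcium. With calcium 4 members were past 2-fold under that scaling, S100a4 being the further one at 1.21 log2 (2.31-fold higher). Of all 21563 genes 2591 were then higher and 255 lower by 2-fold. Under quantile scaling 4 members were past 2-fold with calcium, S100a3 being at -1.04 (2.06-fold lower), where 1406 genes were higher and 688 lower.

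**Figure D2:**
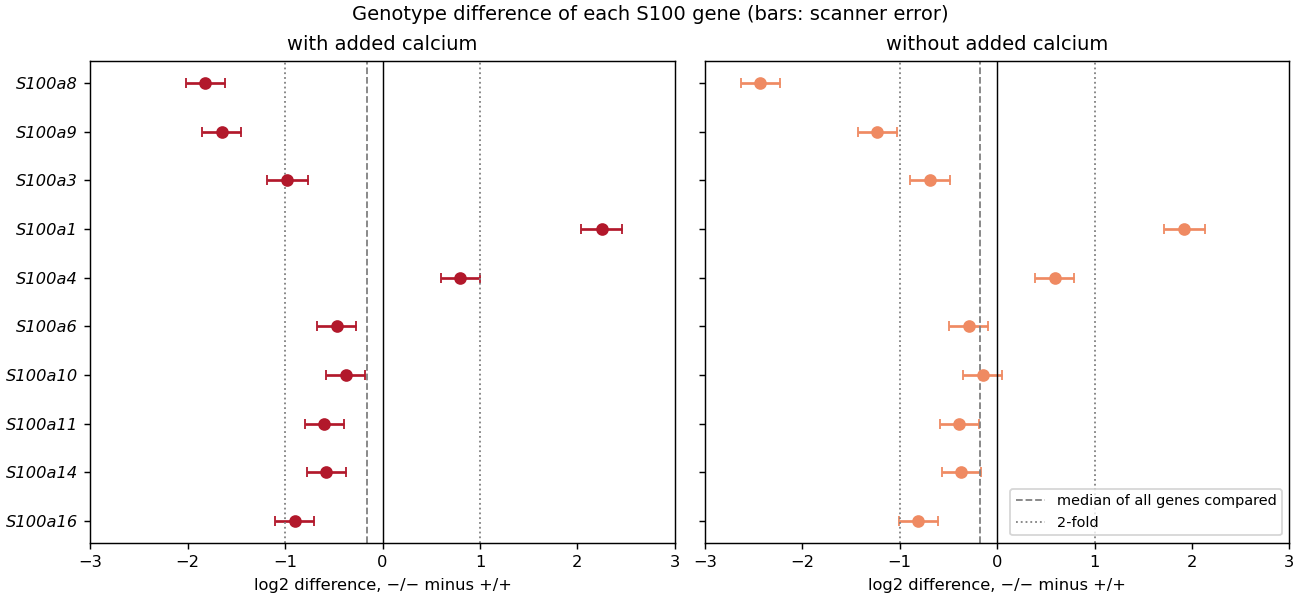
Log2 difference of -/- over +/+ cells for each S100 member, with and without calcium, with the combined scanner error as bars, the 2-fold limits as dotted lines and the all-gene median as a dashed line. S100a8 and S100a9 lie below -1 and S100a1 above 1 in both comparisons, while the other 7 lie between -0.98 and 0.80.

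Added calcium moved the members by less than 2-fold in either genotype. In -/- cells 0 of 10 members were 2-fold higher, where 2.99% of 21427 genes were, and 0 were 2-fold lower, where 0.602% were (3.59% either way). In +/+ cells the counts were also 0 and 0, where 2.47% and 1.01% of 21127 genes were higher and lower (3.48% either way). The median over members was -0.06 log2 in -/- cells and 0.12 in +/+ cells, against -0.03 and -0.07 over all genes. With the scanner error as the yardstick, 5 members differed in -/- cells and 7 in +/+ cells. No share of all genes past that error was counted beside these.

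The calcium differences past that error went both ways. S100a4 was lower with calcium, by -0.54 log2 in -/- cells and -0.76 in +/+ cells, and its second probe gave -0.53 and -0.76. S100a16 was higher, by 0.44 log2 in -/- cells and 0.53 in +/+ cells, with 0.40 and 0.58 from its second probe. S100a1 was lower, by -0.22 log2 in -/- cells and -0.54 in +/+ cells. S100a6 was lower by -0.34 log2 in -/- cells, and in +/+ cells its -0.16 stayed within the error. S100a3 and S100a11 were higher in +/+ cells, by 0.26 and 0.27 log2, and gave -0.03 and 0.05 in -/- cells. S100a10 and S100a14 gave values within the error in both genotypes.
Under the basal scaling all 10 members had a value above 0 in -/- cells and 7 in +/+ cells. The direction of the small calcium differences thus rests on the scaling. The basal markers were themselves lower with calcium, and this scaling moved the all-gene median to 0.55 and 0.42. Relative to that median the members' median was -0.03 and 0.20 in -/- and +/+ cells, against -0.04 and 0.20 in the main values. Under the basal scaling S100a6 gave 0.24 and 0.33 in -/- and +/+ cells, and S100a4 gave 0.04 and -0.26.

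The cultures themselves did respond to calcium by suprabasal markers. Of 9 such markers compared, 7 were at least 2-fold higher in -/- cells and 5 in +/+ cells, with medians of 2.37 and 1.72 log2. Krt1, Dsg1a and Dsc1 enter these as bounds, and the +/+ median is itself the bound of Dsc1. Over the 6 markers measured on all 4 arrays the -/- response minus the +/+ response had a median of -0.93 log2, with 5 below 0 and 3 at least 2-fold lower, among them Lor (2.37 log2 in -/- cells, 4.06 in +/+ cells) and Krtdap (2.87 in -/- cells, 4.51 in +/+ cells). Basal markers were lower, with medians of -0.57 and -0.48 over 14 genes. The 72 genes or targets other than S100 genes that lie between the outermost members also stood apart from their S100 neighbours in size. Their median calcium difference was 0.96 log2 over 61 compared in -/- cells and 2.35 over 62 in +/+ cells, with 29 and 41 at least 2-fold higher.

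The calcium response was compared between genotypes by subtracting the +/+ response from the -/- response. No member differed by 2-fold: 0 of 10 were higher and 0 lower, where 1.91% and 0.629% of 19225 genes were (2.54% either way). The median over members was -0.20 log2, against 0.02 over all genes. Only S100a8 (0.61 ± 0.29), S100a9 (-0.42 ± 0.29) and 1 other member, S100a1 (0.33), exceeded the scanner error of a difference of differences. How many of all genes exceeded it was not counted. For 4 members, S100a8, S100a3, S100a10 and S100a14, the signs of the responses were opposite in the 2 genotypes, though 1 or both of the values were within the error for each of them. For the 72 neighbouring genes or targets that are no S100 genes the median was -1.26 log2 over 56 of them, with 30 at least 2-fold lower.

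**Figure D3:**
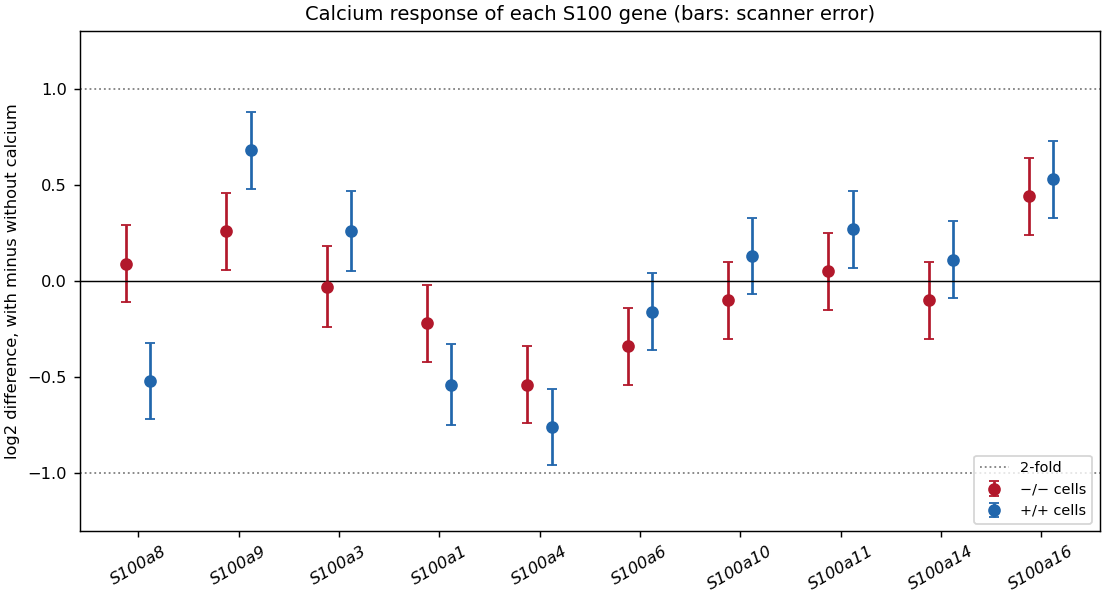
Log2 difference with calcium over without calcium for each S100 member in -/- and +/+ cells, with the combined scanner error as bars and the 2-fold limits as lines. All values lie between -0.76 and 0.68, with S100a4 in +/+ cells at the lower end and S100a9 in +/+ cells at the upper end.

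Among the other S100 genes, 8 were listed and 5 or 6 could be compared. S100b, known from glia, Schwann cells and fat cells, was the one at least 2-fold higher in -/- cells in both comparisons. Its level was -2.23 log2 in -/- cells with calcium and -1.49 without, against -3.79 log2 in +/+ cells with calcium and -2.93 without, so it was 2.71-fold higher without calcium and 2.96-fold higher with it. S100a2 gave -0.98 and -1.06 log2. S100a7a, the mouse relative of psoriasin, was well above background in +/+ cells with calcium alone (-4.19 log2), and there it was at least 4.47-fold lower in -/- cells. S100z was higher with calcium by 1.05 log2 in -/- cells and 0.78 in +/+ cells. Of the fused S100 proteins, which carry an S100 domain before long repeats, Tchhl1 was higher with calcium by 1.15 log2 in -/- cells and 2.68 in +/+ cells, and Tchh by 0.74 and 1.13.

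The other genes were taken from lists by role, and at most 4 of a list are named per comparison. Annexins and Ahnak, membrane partners of S100a10 and S100a11, had 0 of 7 genes past 2-fold in either genotype comparison, with medians of -0.18 and -0.38 log2. Anxa6 was higher in -/- cells by 0.77 log2 without calcium and 0.81 with calcium, and Anxa11 gave -0.24 and -0.78. Anxa2, the partner of S100a10, gave -0.16 and -0.26, beside -0.15 and -0.38 for S100a10 itself, and was picked after its value was seen.

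Of 5 receptors for secreted S100 proteins compared without calcium and 6 with calcium, 2 were at least 2-fold higher in both. Over all genes compared 4.65% and 6.55% were at least 2-fold higher. The 2 receptors were Cd36, a fatty acid receptor, by 2.38 and 2.66 log2, and Tlr4, a receptor for calprotectin, by 1.03 and 1.27. With calcium 1 receptor was at least 2-fold lower, where 3.05% of all genes were. Ager, the receptor for glycation products, was well above background in +/+ cells with calcium alone, and there at least 3.68-fold lower in -/- cells. Intracellular targets had 7 of 7 genes with values below 0 in both comparisons and medians of -0.38 and -0.45 log2, where 67.6% and 63.0% of all genes were below 0. In each comparison 1 of the 7 lay at -0.03. Tgm1, the transglutaminase that cross-links the envelope, was the 1 gene past 2-fold, at -1.12 log2 with calcium. The tumour suppressor Trp53 gave -0.66 and -0.97.

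Genes of the activated keratinocyte, the state in which S100a8 and S100a9 are made, were mostly lower in -/- cells as well. Of 15 compared without calcium 6 were at least 2-fold lower and 0 higher, with a median of -0.90 log2. Of 17 compared with calcium 7 were lower and 0 higher, with a median of -0.85. Among all genes compared 4.34% were at least 2-fold lower without calcium and 3.05% with it. Values below 0 were found for 13 of the 15 activation genes without calcium and 15 of the 17 with it, where 67.6% and 63.0% of all genes were below 0. The neutrophil attractant Cxcl5 gave -2.04 log2 without calcium and -3.11 with it. The protease inhibitor Slpi gave -1.84 and -1.99. The iron-trapping protein Lcn2 gave -1.29 without calcium and Il1a -1.20, and Cxcl1 gave -2.05 with calcium. These lists were not tested, and that of activation genes was drawn up with earlier results of these data known.

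**Figure D4:**
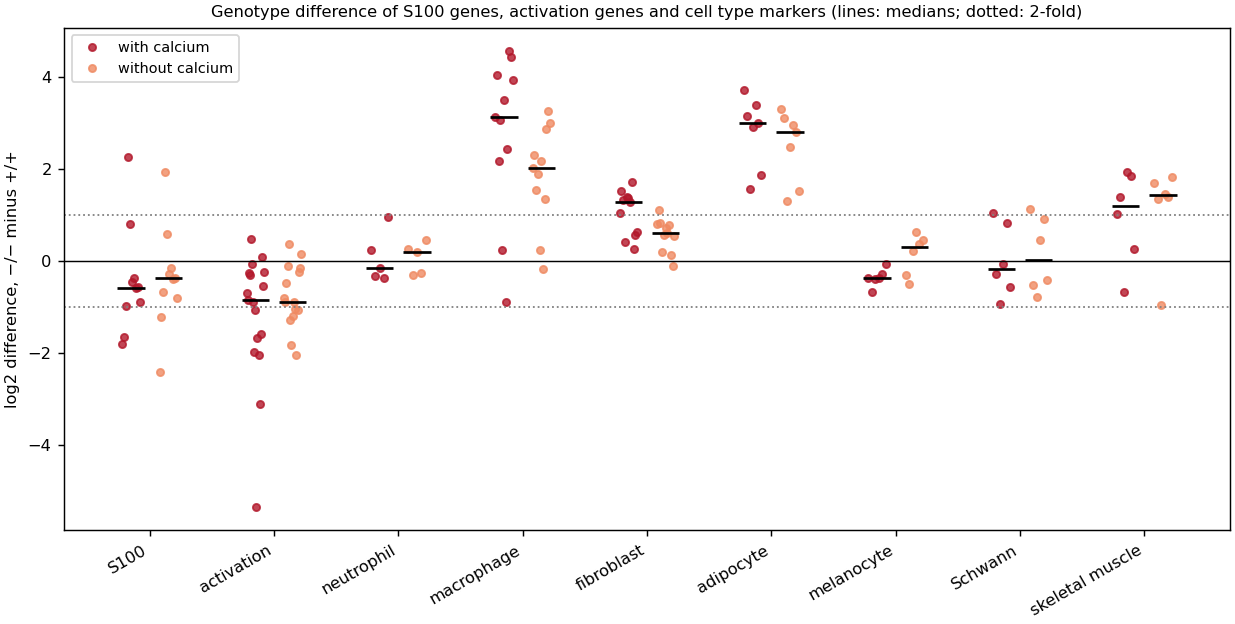
Log2 difference of -/- over +/+ cells for the 10 S100 members, the activation genes and the markers of 7 cell types, with and without calcium. Each point is 1 gene, with bounds at their bound, black lines are medians and dotted lines the 2-fold limits. With and without calcium the medians are -0.59 and -0.38 for the S100 members and -0.85 and -0.90 for activation genes, and those of macrophage and adipocyte markers lie at 2.02 or above.

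Markers of other cell types that could stand in a culture from whole skin also differed between the genotypes, and some of those types make S100 proteins. In RNA from a whole culture, fewer cells of a type and less RNA per cell cannot be told apart. Neutrophil markers, whose cells are filled with S100a8 and S100a9, had 5 of 10 genes well above background on every array. Those 5 were Ly6g, Camp, Elane, Mmp8 and Csf3r. The others, Ngp, Ltf, Mpo, Cxcr2 and Retnlg, were not well above background on any array. The summed level of the list, in units of the 75th percentile, was 20.3 and 22.1 in -/- cells with and without calcium, against 25.8 and 26.0 in +/+ cells with and without it. Csf3r, a growth factor receptor, carried nearly all of that sum, and without it the list summed to 1.37 and 1.46 in -/- cells and 1.3 and 1.27 in +/+ cells. None of the 5 compared differed by 2-fold, and their median was 0.18 log2 without calcium and -0.16 with it.

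Markers of several other types were higher in -/- cells. Of all genes compared 4.65% were at least 2-fold higher without calcium and 6.55% with it. The macrophage and skeletal muscle counts include bounds. Of 11 macrophage markers 9 were at least 2-fold higher in both comparisons, with medians of 2.02 log2 without calcium and 3.13 with it. Their summed level was 32.1 and 22.0 in -/- cells with and without calcium, against 6.75 and 7.66 in +/+ cells. Of 11 fibroblast markers 1 was 2-fold higher without calcium and 7 with it, with medians of 0.60 and 1.27 and sums of 248 and 230 in -/- cells, against 138 and 156 in +/+ cells. All 7 adipocyte markers compared were higher in both, with medians of 2.81 and 3.00 and sums of 140 and 174 in -/- cells, against 36.7 and 55.9 in +/+ cells, and Lep was not well above background on any array.
All 7 mast cell markers compared were higher in both, with medians of 3.28 and 3.71 and sums of 9.11 and 8.95 in -/- cells, against 1.53 and 1.22 in +/+ cells, and Ms4a2 was not well above background on any array. Of 6 skeletal muscle markers compared 5 were 2-fold higher without calcium and 4 with it, with medians of 1.42 and 1.20 and sums of 2.65 and 1.68 in -/- cells, against 1.04 and 0.617 in +/+ cells, and Ckm was not well above background on any array.
Schwann cell markers had medians of 0.02 and -0.18 over 6 genes, and sums of 16.5 and 16.4 in -/- cells, against 14.8 and 13.6 in +/+ cells. These values moved in the direction of S100a1, S100a4 and S100b for all of these lists but the last, and against that of S100a8 and S100a9. Their part in the S100 values was not tested.
Among keratinocyte lists, basal markers had medians of -0.26 and -0.38 over 14 genes and sums of 318 and 408 in -/- cells with and without calcium, against 447 and 501 in +/+ cells. Beyond keratinocytes, melanocyte markers had medians of 0.29 and -0.37, endothelial markers -0.50 and -0.73, and the 2 T cell markers compared -0.39 and -0.57. Langerhans cell markers had medians of 0.00 and -0.47, with Cd207 not well above background on any array. The 0.00 is itself a bound, of a gene not well above background in +/+ cells without calcium.

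For the 5 members whose level spanned at least 1 log2, the genes with the nearest profile over the 4 arrays were sought among 14410 named genes, by the root mean square difference of mean-centred log2 levels. Over 4 arrays such likeness is a description, and arrays share their RNA and their scaling. S100a8, which spanned 2.43 log2, had no gene nearer than the scanner error of 0.14, and its nearest were Stmn1 (0.153), Cck (0.158) and Crabp1 (0.158). S100a9 had 12 genes nearer than the error, with Vps37b (0.071), Nfkbiz (0.075) and Fosl1 (0.083) first. Nfkbiz stood at -1.31 and -1.62 log2 in -/- cells with and without calcium, against 0.30 and -0.54 in +/+ cells.
S100a1 had 61 such genes and was nearest to Slc44a3 (0.029), Mrap (0.031) and Abhd15 (0.040). S100a4 had 62 and was nearest to Fah (0.040), Morn1 (0.046) and Cd320 (0.055). S100a16 had 125 and was nearest to Esrp1 (0.019), Peg3os (0.035) and Peg3 (0.041).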

How the data were processed

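Expression in cultured mouse keratinocytes was measured on Agilent one-colour arrays, 1 array for each of 4 groups. Per the file headers, the authors' scanner files give a processed intensity per spot, made by Agilent Feature Extraction, version 11.5.1.1, after background subtraction and with no scaling between arrays. The deposited value table holds a linear ratio of that intensity to the array's 75th percentile, and it was used as an alternative. Percentiles were 3300.8 and 2890.9 intensity units in -/- cells with and without calcium, and 2738 and 2638.2 in +/+ cells with and without it.

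Outlier spots, as the scanner marks them, were dropped and none was saturated. The log2 of the intensity was taken relative to the 75th percentile over 43020 non-control spots, repeat spots were averaged, and a gene was read from its brightest probe by the mean over the arrays. Probes kept the file's gene name unless their accession was listed in RefSeq (27508 of 39429 were). A comparison needed 1 array on which the gene was well above background; if the other was dim, the difference is a bound against the lowest signal well above background there. Scanner errors of a probe were combined in quadrature. Groups came from the labels. No test was run, and genes were counted at 2-fold.

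All members are named. From each list at most 4 genes per comparison are named, largest first among those measured on both arrays, and Anxa2, Krt1, Dsg1a and Dsc1 were added outside that rule after their values were seen. There were 21 lists with 182 entries, of which 6 were not found under these names. The results of 1 list are not reported here. The members, lists and rules were chosen with earlier results of these data known. The steps were tested on simulated data. Also tried were background correction by normexp (offset 50), scaling by quantiles, by the median of bright probes and by basal keratinocyte genes, averaging over a gene's probes, the value table, other filters on dim probes and a 3-fold threshold. Promoter windows are those of RefSeq for GRCm38.p6. Scripts ran in Python 3.11.15 with numpy 2.4.6 and pandas 2.3.3, and R 4.3.3 with limma 3.58.1.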

Additional observations from a re-analysis of the deposited data

Results flagged for a closer look

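S100a8 had calcium differences of opposite sign in the genotypes, 0.09 log2 in -/- cells and -0.52 in +/+ cells, a difference of 0.61 with a scanner error of 0.29. With 1 array per group this difference was not tested, and the -/- value was within the scanner error. The 2 responses depended on the scaling. Under the basal scaling they were 0.67 in -/- cells and -0.02 in +/+ cells, with a difference of 0.69.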

How the results depend on the processing

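Of 85 values of the members' counts and medians under the alternatives 78 stayed close to the values reported. Part of this count was fixed beforehand. The value table repeats the reported values, and filters on dim probes cannot move members well above background on every array. Under quantile scaling the median over members was -0.33 for the genotype difference with calcium. Scaling to basal keratinocyte genes gave medians of -0.05 without and -0.18 with calcium for the genotypes, and 0.52 and 0.62 for calcium in -/- and +/+ cells, where -0.06 and 0.12 were reported; the small -/- median was also above 0 under quantile scaling (0.03). The basal scaling moved the all-gene medians for calcium to 0.55 and 0.42 too. It also gave 1 member (S100a16, 1.02) at least 2-fold higher with calcium in -/- cells, where 2635 of 21427 genes were. In +/+ cells it gave 2 (S100a9, 1.18, and S100a16, 1.02), where 1280 of 21127 genes were. S100a8 and S100a1 were past 2-fold in both genotype comparisons under all 8 settings of background, scaling, filter, probe and source. Here too the filters and the value table could not give another outcome. No paired analysis was possible because each group is 1 array and the labels carry no replicate numbers; for the same reason no array could be left out. Depth is the brightness over background here, and all 10 members were well above it, so precision is limited by the number of arrays.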
